A study of Mus musculus with 6 samples.

Results

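The Cxcr6 T cells of the mouse liver described here were 327 of 23008 CD45+ cells (1.42%) and 327 of 2328 T cells, spread over 6 single-cell libraries. They were chosen on the deposited scaled expression values (score units, in which 0 is the mean over the cells of a site and 1 is 1 SD). A cell was taken when the mean of Cxcr6, Art2a, Hopx and Il2rb was above 1.5, the mean of Cd3e, Cd3g, Trac and Trbc2 was above 0.5, the mean of Cd8a and Cd8b1 was below 0.5, Ncr1 was below 1 and the mean of Ctla4, Tnfrsf4, Icos, Ikzf2 and Izumo1r was at most 1.5. Balb/c mice had received, by injection into the heart, 4TO7 mouse breast cancer cells that were either Ctrl or Tim3-KD, that is, with Havcr2 (TIM3) knocked down in the tumour cells and not in the T cells of the host. CD45+ cells, CD45 being the common surface protein of blood-derived cells, were sorted from liver pieces of 3 kinds. AT was neighbouring liver without tumour at day 3, Micro was liver with micrometastases at day 3 and Macro was liver with macrometastases at day 12, and all 3 were taken from mice with Ctrl and mice with Tim3-KD tumour cells. Each of these 6 groups was 1 library, so that no difference between Tim3-KD and Ctrl at a site, or between sites, has a replicate check. By the methods each library was a pool from a pair of mice, and the labels gave no age.

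As background, Cxcr6 is the receptor for Cxcl16, a chemokine of liver sinusoidal endothelium, and T cells that carry it patrol or stay in the liver rather than recirculate. Such cells include natural killer T cells, which read lipid antigens on Cd1d with a nearly fixed T cell receptor, some gamma-delta T cells, and conventional memory T cells that became resident. Many share a type 1 programme with natural killer (NK) cells: interferon gamma (Ifng), the dendritic cell attractant Xcl1, granzymes and NK receptors, kept ready for release by cytokines such as interleukin-15, whose receptor holds the Il2rb chain.

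The name natural killer T cell could not be checked for all the cells, and they are called Cxcr6 T cells here. Zbtb16 (PLZF), the transcription factor that defines that lineage, was held by the Macro table alone, where 21.4% of Ctrl and 18.4% of Tim3-KD Cxcr6 T cells had a UMI of it (a unique molecular identifier, 1 counted RNA molecule), against 2.87 to 3.26% of the other non-CD8 T cells. Klrb1c (NK1.1) was found in 11.9% and 7.77% of them at the same site, against 45.3% of NK or ILC1 cells in either library. The invariant receptor segments were looked for, but no table held an entry of its own for them, so they could not be checked. The values of the gate genes describe the choice and support nothing: Cd3g had a UMI in 96.6 to 100% of Cxcr6 T cells of a library, Cxcr6 in 79.3 to 100%, Il2rb in 90.7 to 100%, Hopx in 46.6 to 88.2% and Art2a in 32.8 to 58.5%, and 91 of the 327 held all 4 residency genes. Cd8a, Cd8b1 and Ncr1 were at 0 in all of them. The median residency score ran from 2.30 in Micro Tim3-KD to 3.01 in Macro Tim3-KD. At the threshold the lowest cell inside and the highest outside scored 1.57 and 1.47 in AT, 1.51 and 1.46 in Micro, and 1.5023 and 1.4986 in Macro, with 36 cells less than 0.25 above the line and 33 less than 0.25 below it.

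The libraries held 7086531 to 79971558 UMIs, with a median of 6300 to 10248 per cell, and the genes kept in the deposited tables carried 10.5 to 20.2% of them. Median UMIs per Cxcr6 T cell were 7243 in AT Ctrl, 12570 in AT Tim3-KD, 4932.5 in Micro Ctrl, 3789.5 in Micro Tim3-KD, 6065 in Macro Ctrl and 5073 in Macro Tim3-KD. Any 2 libraries shared 0 to 11 cell barcodes (at most 0.224%), none of them of a Cxcr6 T cell. Some of the cells carried RNA of other cell types: 39 of the 327 had 3 or more UMIs summed over 18 genes of macrophages, neutrophils, dendritic cells and B cells, and these were 6 of 53 in AT Ctrl, 8 of 17 in AT Tim3-KD, 1 of 54 in Micro Ctrl, 4 of 58 in Micro Tim3-KD, 10 of 42 in Macro Ctrl and 10 of 103 in Macro Tim3-KD. The summed level of 8 B cell genes was 11.5 to 531 CPM (counts scaled to the same total of UMIs in every library) in Cxcr6 T cells against 91.8 to 4659 in all cells. That of 12 monocyte and macrophage genes, of which 5 to 12 had a UMI, was 153 to 1823 against 2019 to 9978. The 5 neutrophil genes held summed to 8.74 to 91.5 against 221 to 2043, the dendritic cell genes to 115 to 1232 against 559 to 4342, and the hepatocyte genes to 0 to 59.8 against 70.4 to 637. Values without such cells are given beside some of the results.

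Xcl1, Ifng and Gzmb were the effector genes whose level set Cxcr6 T cells furthest apart from other non-CD8 T cells, and the stretches just upstream of their start sites are shown to place these genes on the genome. The 250 bases before each start come from RefSeq on GRCm38.p6, the build of the files, and run 5′ to 3′ on the strand of the gene. Capitals mark matches to a T-box motif (GGTGTGA), a Runx motif (TGTGGT) or an AP-1 motif (TGACTCA), each searched on both strands, families that are known to act at effector genes of T and NK cells.

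Xcl1, chr1:164935523-164935772, strand minus: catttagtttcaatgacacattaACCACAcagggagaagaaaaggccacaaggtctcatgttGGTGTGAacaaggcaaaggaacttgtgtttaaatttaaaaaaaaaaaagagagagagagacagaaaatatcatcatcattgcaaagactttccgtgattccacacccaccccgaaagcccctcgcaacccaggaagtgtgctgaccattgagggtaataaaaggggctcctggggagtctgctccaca
Ifng, chr10:118440796-118441045, strand plus: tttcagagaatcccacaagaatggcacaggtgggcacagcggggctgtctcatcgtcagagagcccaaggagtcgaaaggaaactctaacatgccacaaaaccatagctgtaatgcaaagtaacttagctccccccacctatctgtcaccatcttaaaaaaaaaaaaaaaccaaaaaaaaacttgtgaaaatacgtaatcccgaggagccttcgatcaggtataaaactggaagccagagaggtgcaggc
Gzmb, chr14:56262335-56262584, strand minus: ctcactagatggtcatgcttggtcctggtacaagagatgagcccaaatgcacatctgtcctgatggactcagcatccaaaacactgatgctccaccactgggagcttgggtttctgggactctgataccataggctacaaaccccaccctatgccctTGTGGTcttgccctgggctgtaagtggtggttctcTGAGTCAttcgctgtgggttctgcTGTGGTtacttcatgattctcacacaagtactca

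In the Xcl1 stretch the T-box letters lay 188 bases and the Runx letters, read as ACCACA, 227 bases before the start. The Gzmb stretch held Runx letters 93 and 34 bases and AP-1 letters, read as TGAGTCA, 58 bases before the start, and the Ifng stretch held none of the 3. Among 32851 mouse promoters of the same length, 3.33% held the T-box letters, 14.0% the Runx letters and 4.46% the AP-1 letters. A match is a run of letters and not a measured binding site.

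To find which genes went with the gate, UMIs were summed per library over the Cxcr6 T cells and over 3 other classes: 770 other non-CD8 T cells, 695 CD8 T cells and 438 NK or ILC1 cells (Ncr1 positive, without a T cell receptor). A further 417 non-CD8 T cells were too high in Ctla4, Tnfrsf4, Icos, Ikzf2 and Izumo1r for the gate, were left out of the other non-CD8 T cells by the same limit, and are called activated or regulatory T cells. The differences were tested with limma on log2(CPM + 10) over the 6 libraries with the library as a block and Benjamini-Hochberg adjustment over all genes tested, leaving out the genes of the gates. The classes were cut on gate genes measured in the same cells, so that a gene that goes with those genes differs by the way the cells were chosen. The p therefore says how alike a difference was across libraries. Folds on this scale understate the change of low genes.

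Xcl1, the attractant of Xcr1-bearing dendritic cells, was among the markers by which these cells were proposed, and is described without a test. It stood at 1103 CPM in AT Ctrl, 774 in AT Tim3-KD, 1217 in Micro Ctrl, 821 in Micro Tim3-KD, 1094 in Macro Ctrl and 945 in Macro Tim3-KD. All 6 values lay above the 16.4 to 279 CPM of other non-CD8 T cells, and they overlapped with the 762 to 1740 CPM of NK or ILC1 cells. Of the Cxcr6 T cells of a library, 72.4 to 88.7% had an Xcl1 UMI (48.3 to 70.6% with every cell thinned to 1500 UMIs), against 6.22 to 35.1% of other non-CD8 T cells. In neutrophils, which should lack the gene and show what free RNA adds, 0.0768 to 4.44% had one at a median of 6639.5 to 9747 UMIs a cell.

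Ifng, the signature cytokine of type 1 immunity, stood at 612 CPM in AT Ctrl, 546 in AT Tim3-KD, 651 in Micro Ctrl, 529 in Micro Tim3-KD, 595 in Macro Ctrl and 764 in Macro Tim3-KD. Every one of these exceeded every library of the other classes, which ran from 47.5 to 197 CPM in other non-CD8 T cells, 50.9 to 365 in NK or ILC1 cells and 76.6 to 355 in CD8 T cells. The log2 difference was 2.83 ± 0.31 (SE, n = 6 libraries) from other non-CD8 T cells (limma, adjusted p = 5.89e-05), 1.29 from NK or ILC1 cells (adjusted p = 0.00902) and 1.42 from CD8 T cells (adjusted p = 0.00202). An Ifng UMI was seen in 62.1 to 94.1% of Cxcr6 T cells of a library, and in at most 0.325% of neutrophils. Cells with both Xcl1 and Ifng were 209 of 327 (63.9%), and 8.56% had neither.

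Gzmb, which encodes a granzyme that triggers death of target cells, stood at 532 CPM in AT Ctrl, 87.4 in AT Tim3-KD, 540 in Micro Ctrl, 397 in Micro Tim3-KD, 296 in Macro Ctrl and 814 in Macro Tim3-KD. AT Tim3-KD was the low library and lay close to the top of the other non-CD8 T cells, which ran from 5.46 to 84.8 CPM. Against these the log2 difference was 2.78 ± 0.22 (limma, adjusted p = 1.23e-05), while it was lower than in NK or ILC1 cells, at 878 to 1724 CPM (log2 difference -1.80, adjusted p = 0.00407), and did not pass the test against CD8 T cells (-0.77, adjusted p = 0.124). Only 35.3 to 46.3% of Cxcr6 T cells of a library had a Gzmb UMI. Gzma and Prf1 did not pass the test against other non-CD8 T cells. Gzma, the granzyme that marks NK cells in these libraries at 7709 to 12138 CPM, gave 102 UMIs in 18 of the 327 cells and was lower by a log2 difference of -7.81 ± 0.43 than in NK or ILC1 cells (limma, adjusted p = 4.74e-07). Against other non-CD8 T cells its log2 difference was -0.50 (limma, adjusted p = 0.492). Prf1, the pore-forming perforin, lay at 15.3 to 46.4 CPM against 285 or more in NK or ILC1 cells (log2 difference -4.39, adjusted p = 8.47e-07), with 0.46 against other non-CD8 T cells (adjusted p = 0.158).

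**Figure D1:**
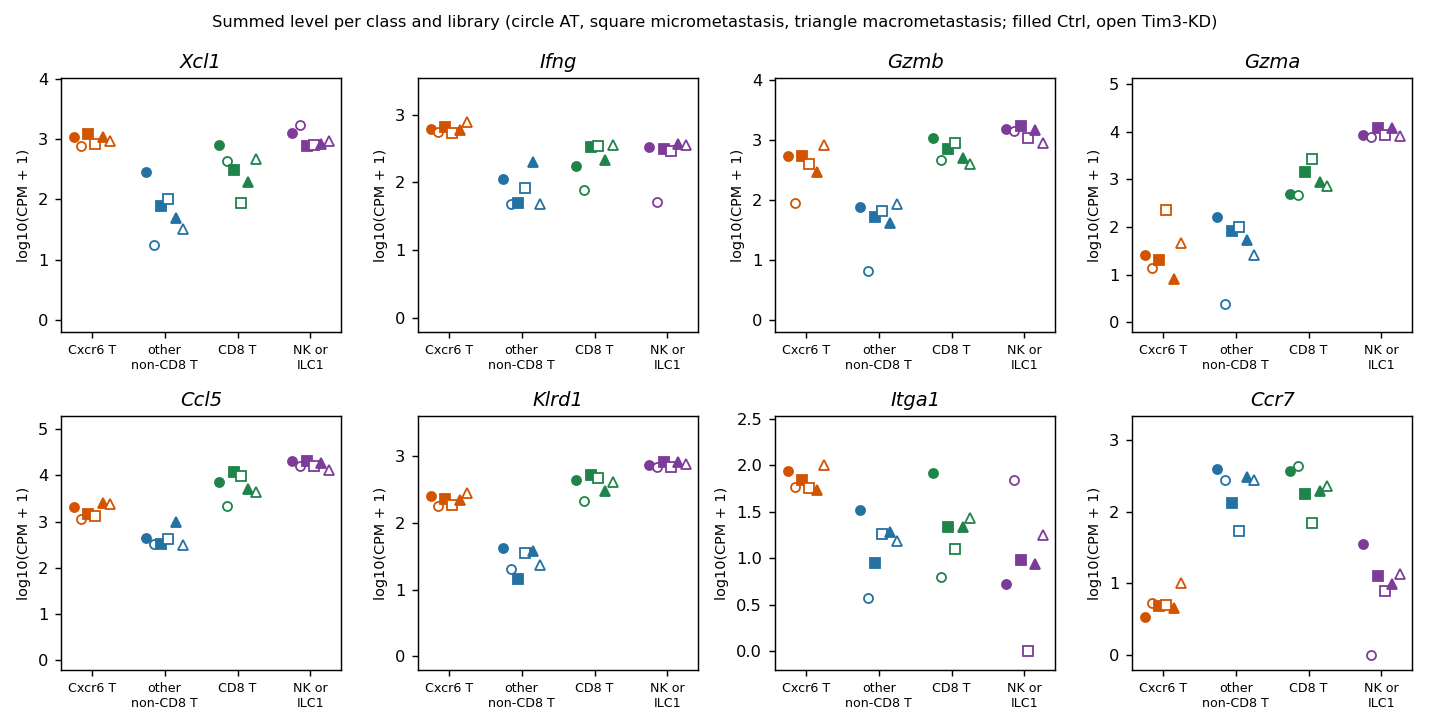
Summed level of 8 genes as log10(CPM + 1) in Cxcr6 T cells and 3 other lymphocyte classes, 1 point a library (circle AT, square Micro, triangle Macro, filled Ctrl, open Tim3-KD). The Ifng points of Cxcr6 T cells (529 to 764 CPM) lie above every point of the other 3 classes, and their Gzma points lie far under those of NK or ILC1 cells (7709 to 12138 CPM).

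By gene group, most type 1 and NK-related genes tested were higher in Cxcr6 T cells than in other non-CD8 T cells. In that comparison 204 of 1527 genes tested were higher (13.4%) and 102 lower (6.68%), with a median log2 difference of 0.00. Of the 11 genes of the type 1 list other than Xcl1, 9 were tested, and all 9 were higher, with a median of 2.36. They included Cxcr3, the receptor for interferon-induced chemokines (log2 difference 2.36, limma adjusted p = 3.06e-05), Ccl5 (1.99), Nkg7 (2.27) and Ctsw (2.69). Of 24 NK receptor genes 11 were tested and 8 were higher, none lower, with a median of 1.85, among them the activating receptor Klrk1 (NKG2D; 2.75), the NKG2 partner Klrd1 (2.67), Cd160 (2.62) and Cd226 (2.49). Of 8 cytotoxic granule genes tested 6 were higher and none lower, median 1.97, Fasl and the granzyme inhibitors Serpinb6b and Serpinb9 among them.

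Against NK or ILC1 cells most NK receptor and cytotoxic genes tested were lower. There 122 of 1328 genes were higher (9.19%) and 150 lower (11.3%), with a median of -0.10. Of 12 NK receptor genes 10 were lower and 1, Cd226, higher, and of 8 cytotoxic genes 6 were lower and none higher. Of the 9 type 1 genes other than Xcl1, 2 were higher (Cxcr3 and Ifng) and 4 lower, with a median of -0.25. Eomes, a T-box factor of NK cells, gave 2 UMIs in all Cxcr6 T cells and was lower by a log2 difference of -4.33 (limma, adjusted p = 4.74e-07). Of 10 cytokine and chemokine genes other than Xcl1, 4 were higher (Ifng, Ltb, Tnf and Tnfsf10) and 3 lower, the chemokines Ccl3 (-4.90), Ccl4 (-4.67) and Ccl5 (-3.29), with a median of 0.66. The inhibitory receptor Klra7 was lower too (-3.80). The 10 genes with the largest higher differences were Cd6 (3.87), Socs2, Cd3d (3.53), Bcl11b (2.88), Cd5 (2.73), Klk8, Gramd3, Inpp4b, Ckb and Plcg1 (2.54). The NK or ILC1 class was cut for want of T cell receptor genes, so that T cell genes such as Cd3d differ by that choice.

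Against CD8 T cells, the other cytotoxic T cell class, 149 of 1394 genes were higher (10.7%) and 131 lower (9.4%), with a median of 0.04. Of the 9 type 1 genes other than Xcl1 3 were higher and 2 lower, and of 12 NK receptor genes 2 were higher and 6 lower. Higher genes included Ccr2, a receptor for inflammatory chemokines (2.12), the transcription factor Maf (1.94), and the paired membrane proteins Tmem176a (3.09) and Tmem176b (3.00). Gzma (-4.48), Ccr7 (-3.93) and the exhaustion-associated factor Tox (-1.89) were lower.

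Socs2 and Ckb were higher in Cxcr6 T cells than in each of these 3 classes. Socs2, a cytokine-induced brake on STAT signalling, stood at 163 CPM in AT Ctrl, 162 in AT Tim3-KD, 161 in Micro Ctrl, 236 in Micro Tim3-KD, 158 in Macro Ctrl and 231 in Macro Tim3-KD. No library of the 3 classes exceeded 49.1 CPM, and the log2 differences were 2.57, 3.64 and 3.11 from other non-CD8 T, NK or ILC1 and CD8 T cells, with limma adjusted p of 3.06e-05, 2.57e-06 and 4.30e-07. Ckb, the brain-type creatine kinase, stood at 259, 192, 256, 108, 229 and 200 CPM in the same order, and no library of the 3 classes exceeded 67.9 CPM. Il2ra, the high-affinity chain of the interleukin-2 receptor, was also higher than in all 3 (1.97, 2.47 and 1.66).

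Against the activated or regulatory T cells, a test added after the data were seen, 119 of 1317 genes were higher (9.04%) and 155 lower (11.8%), with a median of -0.03. Of 9 type 1 genes other than Xcl1 8 were higher and none lower (median 1.99), and of 10 NK receptor genes 8 were higher and none lower (median 1.78). Ifng stood at 56.4 to 202 CPM there and did not overlap with the Cxcr6 T cells (log2 difference 2.50 ± 0.23, limma adjusted p = 3.92e-05). Itga1 (1.81), Ckb (1.72), Socs2 (1.33) and Gzmb (1.63) were higher as well, and the 44.3 to 128 CPM of Il2ra overlapped with the 30.6 to 132 of Cxcr6 T cells (-0.17, adjusted p = 0.609). Of 7 checkpoint and costimulation genes Tnfrsf18 (GITR; -0.96), Tnfrsf9 and Tox were lower and 1, Cd160, higher.

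**Figure D2:**
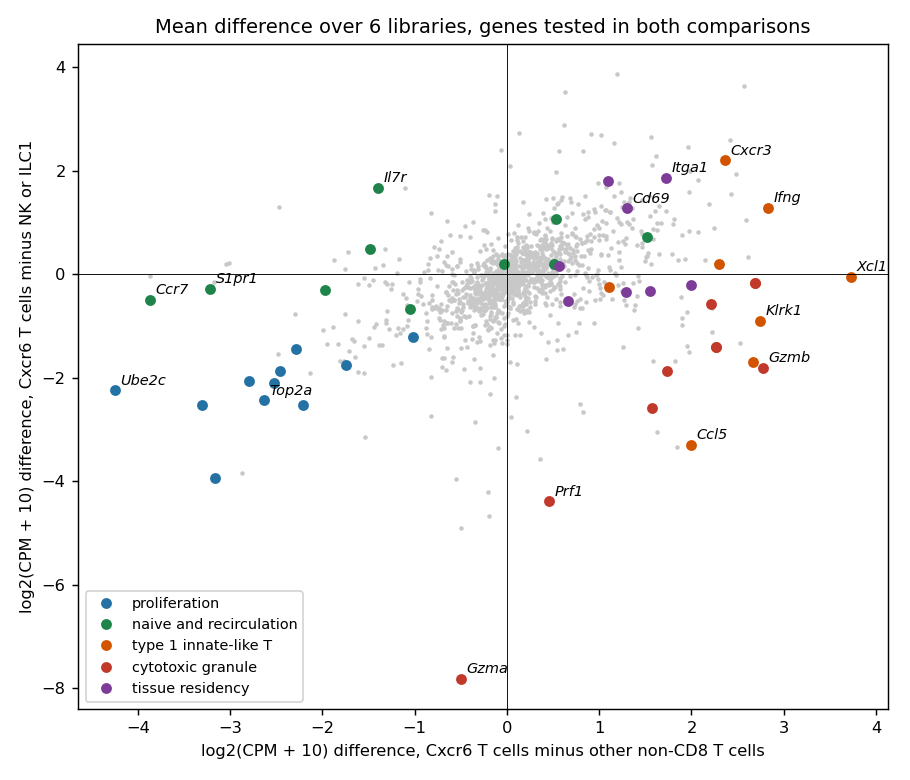
Each point is 1 gene, with its mean log2(CPM + 10) difference over 6 libraries between Cxcr6 T cells and other non-CD8 T cells on the x axis and between Cxcr6 T cells and NK or ILC1 cells on the y axis. Grey points are all genes tested in both and colours mark 5 gene lists. Gzmb lies to the right and below 0 (2.78 and -1.80), Ifng to the right and above 0 (2.83 and 1.29), Gzma at the bottom (-7.81 on the y axis), and the proliferation genes below 0 on both axes.

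The residency and recirculation genes that the gate did not use were split as well. Of 8 residency genes tested against other non-CD8 T cells 6 were higher and none lower, with a median of 1.29. Against NK or ILC1, CD8 T and activated or regulatory T cells 3 of 8 each were higher and none lower. The medians there were -0.02, 0.58 and 0.25. Itga1, the collagen-binding integrin of resident lymphocytes, stood at 85.4 CPM in AT Ctrl, 56.8 in AT Tim3-KD, 68.9 in Micro Ctrl, 56.1 in Micro Tim3-KD, 52.8 in Macro Ctrl and 99.9 in Macro Tim3-KD, against 2.73 to 32.2 in other non-CD8 T cells. The groups did not overlap, and the log2 difference was 1.72 (limma, adjusted p = 0.000409), with 1.87 from NK or ILC1 and 1.30 from CD8 T cells. Cd69, which holds S1pr1 off the cell surface, was higher than in all 3 classes (1.30, 1.28 and 0.96). Of 11 naive and recirculation genes 7 were lower and 1, Ly6c1, higher than in other non-CD8 T cells, with a median of -1.40. Ccr7, the lymph node homing receptor, gave 10 UMIs over all Cxcr6 T cells (2.44 to 9.25 CPM) against 53.2 to 384 CPM (log2 difference -3.87, adjusted p = 1.64e-05). S1pr1, the receptor that leads cells back to blood, gave 9 UMIs (0 to 17.6 CPM) against 21.2 to 258 CPM (-3.22, adjusted p = 0.000205). Klf2, a factor that drives S1pr1, differed by -0.03 (adjusted p = 0.962).

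Of 10 cytokine and chemokine genes other than Xcl1 tested against other non-CD8 T cells 6 were higher and none lower, with a median of 1.19. Tnf, an inflammatory cytokine, stood at 51.2 CPM in AT Ctrl, 43.7 in AT Tim3-KD, 99.5 in Micro Ctrl, 100 in Micro Tim3-KD, 109 in Macro Ctrl and 146 in Macro Tim3-KD. The AT values were the low ones and overlapped with the 25.8 to 75.1 CPM of other non-CD8 T cells, and the log2 difference was 1.07 (limma, adjusted p = 0.0191). Of 7 cytokine receptor and signalling genes 3 were higher (Cish, Il2ra and Socs2) and 1 lower, Il7r, the interleukin-7 receptor of naive and memory cells (-1.39). Il7r was nevertheless higher than in NK or ILC1 cells (1.68). Of 19 interferon-stimulated genes 4 were higher and none lower than in other non-CD8 T cells, with a median of 0.20, beside 13.4% higher among all genes tested, and of 7 checkpoint and costimulation genes 3 were higher (Cd160, Cd28 and Tnfrsf18) and none lower. Without cells of any class that carry RNA of other types, 1 of 5 checkpoint genes tested was higher, and Cish (0.53) did not pass.

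Few of the Cxcr6 T cells showed genes of division. All 11 proliferation genes tested were lower than in each of the 3 classes, with medians of -2.53, -2.10 and -2.24. Mki67 lay at 0 to 20.0 CPM in Cxcr6 T cells, 15 UMIs in all, against 43.0 to 218 CPM in other non-CD8 T cells (log2 difference -2.53, limma adjusted p = 2.52e-05). These genes sit in a minority of cells in the other classes, since at most 16.5% of other non-CD8 T cells of a library had a Mki67 UMI. RNA of other cells moved with this difference. The promyelocyte gene Prtn3 stood at 5852 CPM in other non-CD8 T cells of Micro Ctrl, 3738 of Micro Tim3-KD and 2918 of Macro Tim3-KD, against at most 139 in Cxcr6 T cells and 760 in CD8 T cells. Cells with 3 or more UMIs of other cell types, Prtn3, Mpo, Elane and Ctsg now counted too, were 205 of the 770 and held 71.3 to 100% of the Mki67 UMIs of other non-CD8 T cells in a library. Without such cells in any class, 4 of the 11 genes were lower than in other non-CD8 T cells (Birc5, Cdk1, Cenpf and Ube2c), with a median of -0.77, and Mki67 (-0.77) did not pass. By the same count 9 of 11 stayed lower than in NK or ILC1 cells and 11 of 11 than in CD8 T cells, with medians of -1.49 and -2.04. The immediate early genes, which rise within minutes of stimulation or tissue handling, went the other way against CD8 T cells, where 8 of 14 were higher and 1 lower, with Egr1 at 1.78 and Fos at 1.29. Against other non-CD8 T cells 6 of the 14 were higher and none lower.

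The cells were a mixture by lineage genes. Cd4 had a UMI in 69 of the 327, or 13.0 to 35.7% of a library, against 15.5 to 54.3% of other non-CD8 T cells, and its level did not pass the test (-0.06, limma adjusted p = 0.913). Cd4 is also seen in myeloid cells, and 0.0768 to 20.0% of neutrophils of a library had a UMI. Trdc, the constant part of the delta receptor chain, was found in 21 cells, 19 of them with at least 2 UMIs, and 8 of the 21 were in Micro Ctrl. Trgc1, a gamma chain gene held by the AT table alone, was found in 45.3% of Ctrl and 52.9% of Tim3-KD Cxcr6 T cells of AT, against 10.9% and 13.7% of other non-CD8 T cells. Trgc1 RNA is made by alpha-beta T cells too, and Trdc was found in 3 of these 70 AT cells. Tmem176b, linked to type 17 and dendritic programmes, had a UMI in 112 cells, 73 of which also had Ifng. Pooled over the libraries, Gzmb was found in 34.8% of the cells with Cd4 and 42.6% of those without, Xcl1 in 82.6% and 81.0%, and Ifng in 76.8% and 73.3%. By library the order for Gzmb was mixed. It was more frequent with Cd4 in AT Tim3-KD, Micro Ctrl and Micro Tim3-KD, and less frequent in AT Ctrl, Macro Ctrl and Macro Tim3-KD. Havcr2, the gene knocked down in the tumour cells, gave 2 UMIs in 2 cells, and says nothing about the knockdown.

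Of all CD45+ cells, Cxcr6 T cells took a larger share in Tim3-KD than in Ctrl at the macrometastases. They were 42 of 4913 cells (0.855%, exact Clopper-Pearson 95% interval 0.617 to 1.15) in Macro Ctrl and 103 of 5502 (1.87%, 1.53 to 2.27) in Macro Tim3-KD, a ratio of shares of 2.19 (1.52 to 3.21) with intervals that did not overlap. With the gate set on UMIs instead of scaled values the shares were 1.63% and 2.31%, a ratio of 1.42 (1.06 to 1.90), and their intervals overlapped. In Micro they were 54 of 5106 (1.06%, 0.795 to 1.38) in Ctrl and 58 of 5142 (1.13%, 0.858 to 1.46) in Tim3-KD, and in AT 53 of 1803 (2.94%, 2.21 to 3.83) and 17 of 542 (3.14%, 1.84 to 4.97), with intervals that overlapped at both sites. With the gate on UMIs those of AT did not (3.55% and 6.46%). The intervals cover counting error only, and the spread between mice is unknown.

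Among T cells the order at AT turned round. There Cxcr6 T cells were 29.0% (22.5 to 36.1) of T cells in Ctrl and 13.6% (8.13 to 20.9) in Tim3-KD. In Micro they were 11.7% (8.92 to 15.0) and 14.1% (10.9 to 17.9), and in Macro 8.35% (6.08 to 11.1) and 15.9% (13.2 to 19.0), so that Macro Tim3-KD was higher on both denominators. Set against NK or ILC1 cells, there were 1.89 and 1.31 Cxcr6 T cells per such cell in AT Ctrl and Tim3-KD, 0.358 and 2.76 in Micro, and 0.261 and 1.61 in Macro. NK or ILC1 cells themselves numbered 151 in Micro Ctrl and 21 in Micro Tim3-KD, and 161 in Macro Ctrl and 64 in Macro Tim3-KD.

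**Figure D3:**
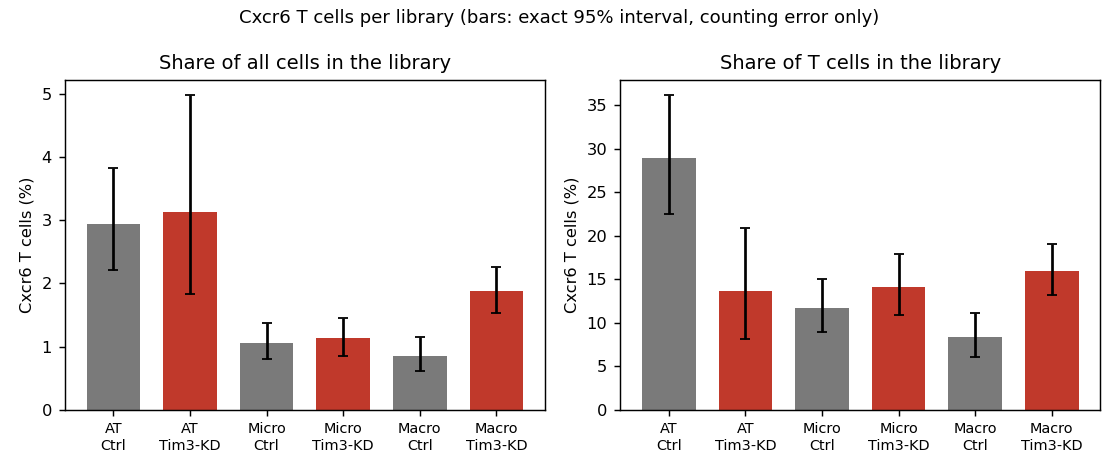
Bars give the share of Cxcr6 T cells (percent) among all CD45+ cells on the left and among T cells on the right in the 6 libraries, 1 library a group, grey for Ctrl and red for Tim3-KD, with exact 95% binomial intervals for counting error. Macro Tim3-KD stands above Macro Ctrl in both (1.87 against 0.855% and 15.9 against 8.35%), while the AT libraries stand in opposite orders on the left and on the right.

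Within the Cxcr6 T cells, Tim3-KD was set against Ctrl at each site as a ratio of CPM with an exact 95% interval for counting error, and a gene counted as past 2-fold with at least 20 UMIs over both libraries. Within a site there is no test, since each group was 1 library. Over the 3 sites together, with the site as a block, limma called 0 of 945 genes higher and 0 lower (0% each) between Tim3-KD and Ctrl, and 15 and 14 had an unadjusted p under 0.05. Without the Micro libraries 3 genes passed, chosen here after their values were seen: Cd14, Clec7a and a joint entry of Ly6c1 and Ly6c2. That fit has 1 residual degree of freedom, Cd14 and Clec7a are genes of macrophages, 96.2% of the Clec7a UMIs of Macro Ctrl came from 1 cell, and without the cells that carry RNA of other types 1 gene passed, the joint entry. In Macro, 103 of 764 genes were past 2-fold higher (13.5%) and 59 lower (7.72%), and relative to the overall log2 shift of 0.17 the split was 80 to 72. The NK receptor list stood out by its counts, with 5 of 9 measured genes past 2-fold higher and none lower, and a median log2 ratio of 1.08 beside 0.15 for all genes. Klre1, an NK lectin receptor, gave 6 UMIs in 4 Ctrl cells and 56 in 25 Tim3-KD cells, 21.1 and 104 CPM (ratio 4.91, 2.12 to 13.9). Klrk1 went from 165 to 351 CPM (ratio 2.12, 1.54 to 2.99) and Klrc2 had a ratio of 3.23 (1.44 to 8.51).

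Of 8 cytotoxic genes measured in Macro 2 were past 2-fold higher and none lower, and of 10 type 1 genes 3 were higher and none lower. Gzmb went from 296 CPM in Ctrl to 814 in Tim3-KD (ratio 2.75, 2.18 to 3.52). Dusp2, a phosphatase induced by receptor signalling, went from 162 to 607 CPM (ratio 3.75, 2.75 to 5.22), and Rgs1, a brake on chemokine signalling, from 334 to 803 (ratio 2.40, 1.92 to 3.03). Ifng (ratio 1.28, 1.07 to 1.55) and Xcl1 (0.864, 0.749 to 0.997) moved by less than 2-fold. In other non-CD8 T cells of Macro the same ratio was 2.07 for Gzmb, 1.01 for Rgs1 and 0.945 for Klrk1, in CD8 T cells 0.797, 1.13 and 1.17, and in NK or ILC1 cells 0.596, 1.88 and 1.23. Klre1 had 1.90 in CD8 T cells, and Dusp2 1.59 in other non-CD8 T cells. Whether these ratios differ between classes was not tested.

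The extremes of the Macro ratios rested on few cells. Ccl3 (ratio 12.3) and Ier3 (5.97) took 96.7% and 87.4% of their UMIs in Tim3-KD from 1 cell each, and the B cell genes Ebf1 (4.65) and Cd79a (4.28) came from 4 cells. The macrophage genes Lyz2 (0.0341) and Clec7a (0.0297) and the antigen presentation genes H2-Aa (0.210), H2-Ab1 (0.213) and H2-Eb1 (0.143) were lower in Tim3-KD, with 84.1 to 97.2% of their Ctrl UMIs from 1 cell. Without the cells with 3 or more UMIs of other cell types, Lyz2 had 3 Ctrl and 11 Tim3-KD UMIs left, Clec7a, H2-Aa, H2-Ab1, H2-Eb1, Ebf1 and Cd79a at most 2 in either library, and Klre1 still had a ratio of 3.97 (1.59 to 12.8).

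In Micro, 42 of 605 genes were past 2-fold higher in Tim3-KD (6.94%) and 57 lower (9.42%), with an overall log2 shift of -0.15 and a split of 54 to 41 relative to it. Ltb, which encodes the lymphotoxin that organises lymphoid tissue, was lower, with 639 CPM among Ctrl cells, 96.2 among Tim3-KD cells and a UMI in 47 of 54 and 21 of 58 cells (ratio 0.150, 0.0938 to 0.232). This was shared with the other T cells, with ratios of 0.139 in other non-CD8 T and 0.151 in CD8 T cells. Ckb (ratio 0.422, 0.259 to 0.669), the protease Furin (0.349, 0.181 to 0.638) and Ifrd1 (0.375, 0.225 to 0.606) were lower too. Ifrd1 was as low or lower by ratio in CD8 T (0.271), NK or ILC1 (0.151) and activated or regulatory T cells (0.343). In other non-CD8 T cells Ifrd1 lay between 47.1 and 67.7 CPM in every library, so it did not fall as far there. Ckb and Furin had 1.03 and 1.03 in other non-CD8 T and 0.482 and 0.655 in activated or regulatory T cells. Xcl1 went from 1217 to 821 CPM (ratio 0.675, 0.563 to 0.807) and Ifng from 651 to 529 (0.813, 0.643 to 1.03), the Ifng interval including no change. Ccl4 (0.375) took 95.5% of its Ctrl UMIs from 1 cell. On the higher side, Gzma (ratio 12.1) came from 4 cells in Tim3-KD and 1 in Ctrl, Chil3 (80.6, 14.0 to 3225) took 61.0% of its UMIs from 1 cell and had a ratio of 2.49 (0.129 to 147) without the cells that carry RNA of other types, and Ctss (10.3) and Anxa1 (2.75) had ratios of 1.24 and 0.984 without them. Ier3 (2.33) had 1.59 without them. At a residency score above 1 the log2 ratios of Gzma, Chil3 and Anxa1 turned round, to -0.22, -1.32 and -1.57.

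In AT, where Tim3-KD had 17 Cxcr6 T cells and 8 of them carried RNA of other cell types, 103 of 1054 genes were past 2-fold higher (9.77%) and 203 lower (19.3%), and 137 and 136 relative to the overall log2 shift of -0.24. Gzmb differed from 532 CPM among Ctrl cells to 87.4 among Tim3-KD cells (ratio 0.164, 0.0984 to 0.260), with 43.1% of the Ctrl UMIs from 1 cell, a ratio of 0.285 (0.168 to 0.459) without that cell, and the ratio was 0.0726 (0.0185 to 0.207) in other non-CD8 T cells and 0.422 (0.350 to 0.507) in CD8 T cells. Ltb went the opposite way to Micro, from 212 to 760 CPM (ratio 3.58, 2.75 to 4.69), and this again was shared with other non-CD8 T (2.96) and CD8 T cells (3.95). Jun (4.41, 3.63 to 5.38) and Klf2 (3.77, 2.85 to 5.04) were higher, with 1.74 and 1.67 in other non-CD8 T cells and 3.02 (2.36 to 3.91) and 1.57 in CD8 T cells. Without the cells that carry RNA of other types Klf2 had a ratio of 1.97 (1.36 to 2.84).

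**Figure D4:**
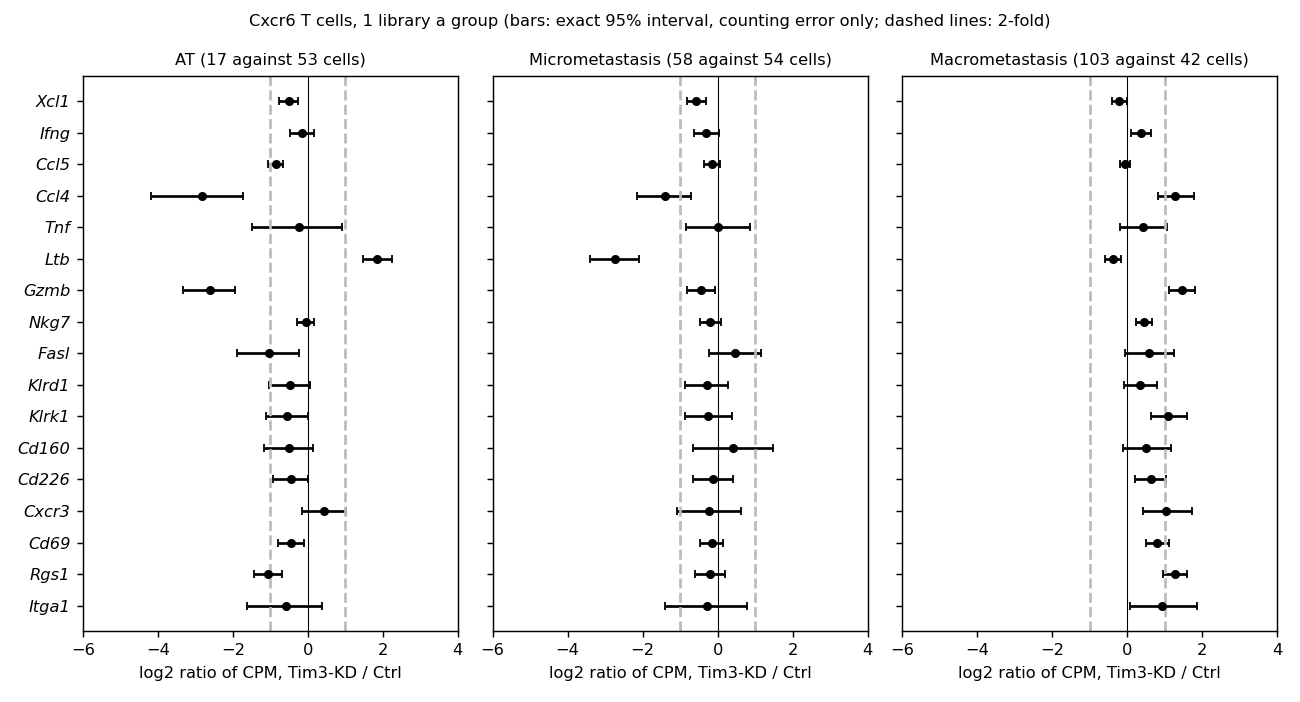
Log2 ratio of CPM, Tim3-KD over Ctrl, of 17 genes within the Cxcr6 T cells of AT, Micro and Macro, 1 library a group. Points are ratios, bars exact 95% intervals for counting error, and dashed lines a 2-fold change. Gzmb lies left of 0 in AT (a ratio of 0.164) and right of 0 in Macro (2.75), and Ltb right of 0 in AT (3.58) and left of 0 in Micro (0.150).

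Between sites of the Ctrl mice the Cxcr6 T cells of Micro and of AT, both at day 3, differed past 2-fold in 49 genes higher in Micro (6.98%) and 61 lower (8.69%) of 702, and in 57 and 54 relative to the overall log2 shift of -0.08. The gate was a cut on scores scaled within each site. The same cut can therefore stand for another RNA level at AT, Micro and Macro, and the cells compared were not chosen alike. Tmem176a (61.0 CPM in AT and 264 in Micro, ratio 4.33, 2.70 to 7.14) and Tmem176b (ratio 2.45, 1.54 to 3.95) were higher in Micro, and so were Ltb (212 and 639 CPM, ratio 3.01, 2.31 to 3.95), the stress gene Gadd45b (ratio 2.96, 2.27 to 3.88) and Hilpda, a lipid droplet protein induced by hypoxia (2.41, 1.46 to 4.03). The other Ctrl classes moved in part likewise: Hilpda had 2.84 in other non-CD8 T and 3.70 in CD8 T cells, Gadd45b 0.466 and 2.34, Ltb 1.13 and 2.94, and Tmem176a 2.76 in other non-CD8 T and 3.96 in activated or regulatory T cells. Lower in Micro were Egr1 (510 and 122 CPM, ratio 0.240, 0.160 to 0.350), Cd160 (181 and 57.4 CPM, ratio 0.318, 0.169 to 0.559), Hmgn2 (0.367), Ly6c1 (0.349) and Prtn3 (0.220). Prtn3, a neutrophil granule gene, took 78.9% of its AT UMIs from 1 cell, and without cells that carry RNA of other types its ratio was 0.910, that of Ly6c1 0.674 and that of Hmgn2 0.530 (0.318 to 0.860). Hmgn2 turned round at a residency score above 1, with a log2 ratio of 1.09. Egr1 had 0.495 and Cd160 0.270 in other non-CD8 T cells. Xcl1 (ratio 1.10, 0.953 to 1.28), Ifng (1.06, 0.869 to 1.30) and Gzmb (1.01, 0.815 to 1.26) had intervals that include no change, but without the 1 cell that held 43.1% of its AT UMIs Gzmb stood at 307 CPM in AT and had a ratio of 1.76 (1.37 to 2.26).

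Macro and Micro of the Ctrl mice differ in day, in lesion and in the gate scaled per site, which cannot be told apart. With the gate on UMIs the 50 genes past 2-fold became 165. Of 424 genes 36 were past 2-fold higher in Macro (8.49%) and 14 lower (3.3%), and 38 and 13 relative to the overall log2 shift of -0.06. Cd69 went from 742 CPM in Micro to 401 in Macro (ratio 0.540, 0.425 to 0.684), and Nabp1 (0.436), Sytl3 (0.460), Serpinb6b (0.514) and Tmem176a (0.533) were lower as well. The Sytl3 product takes part in granule release, and Serpinb6b inhibits granzymes. The higher genes H2-Ea, H2-Aa, H2-Ab1, Ccl9 and Clec7a, which belong to antigen-presenting cells and macrophages, took 82.0 to 98.3% of their Macro UMIs from 1 cell, and had at most 5 UMIs in either library without the cells that carry RNA of other types. Tmem176a had a ratio of 0.649 (0.412 to 1.00) without those cells. Gzmb had a ratio of 0.548 (0.413 to 0.723), and Ifng of 0.914 (0.734 to 1.14).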

How the data were processed

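CD45+ liver cells of 6 groups were profiled on the 10x 3′ v3.1 platform, 1 library a group. Per the labels and the methods, the authors trimmed reads with Trim Galore 0.4.3, aligned them with STAR 2.7.7a to GRCm38, counted exon and intron reads, filtered cells and removed doublets before deposit. The deposited matrices hold scores scaled per gene over the 2 libraries of a site, capped at 10, with 4486 (AT), 2669 (Micro) and 2643 (Macro) genes. By the model that returned whole UMIs, they were log-normalised expression less a linear trend with the cell's total UMIs. UMIs were recovered by inverting the scaling. Over the 3 sites, 99.9964 to 99.9999% of values came out whole within 0.05, and 0.144 to 0.160% were at the cap. Columns without a sample numbered 0.

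Class differences were tested with limma 3.58.1 (R 4.3.3, trend) on log2(CPM + 10), in place of a count model, on 1642 genes held by all matrices with at least 20 UMIs. The threshold was an adjusted p of 0.05. In data simulated for each of the comparisons with other non-CD8 T, NK or ILC1, CD8 T and activated or regulatory T cells, on 1541, 1359, 1410 and 1355 genes, the test recovered 79.8, 82, 86.9 and 85% of 4-fold and 26.3, 25, 40.4 and 35% of 2-fold changes, and that of Tim3-KD over the 3 sites, on 981 genes, 71.7 and 12.5%. The simulations assumed a dispersion of 0.1 and the same change in every library or site. Neither was estimated from these data, so the rates hold for such changes only. Named genes were those of the lists, the 10 highest and 10 lowest differences past the threshold with 1 sign in every library, and per ratio the 5 highest and 5 lowest with 50 or more UMIs where both libraries had 20 or more cells (not AT Tim3-KD). The members and the lists were chosen with earlier results of these data known. Alternatives covered the gate threshold, a gate on UMIs, filters, pseudocounts, scaling, limma voom and leaving out each library. The values of 1 gene are not reported here. The comparison with activated or regulatory T cells, ratios without the cell richest in a gene, fits without the library block, a denominator without Csf3r-positive cells, the removal of cells with RNA of other types, and a limma fit of Tim3-KD against Ctrl over the sites (site as block, 2 residual df) were added after the data were seen.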

Additional observations from a re-analysis of the deposited data

Results flagged for a closer look

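Within the Cxcr6 T cells, 9 genes of the gene lists had a Tim3-KD to Ctrl ratio past 2-fold in opposite directions at 2 sites, each with a counting interval off 1. Only list genes outside the gate and outside the lists of other cell types were screened. The 9 are therefore no count over all genes, and the share among all genes was not computed. With 1 library a group the difference between sites was not tested. Gzmb had a ratio of 0.164 in AT and 2.75 in Macro, Klre1 0.283 and 4.91, and Rgs1 0.481 and 2.40. In AT the ratio of Gzmb was also below 1 in other non-CD8 T (0.0726) and CD8 T cells (0.422), as was that of Rgs1 (0.252 and 0.698) and that of Klre1 in CD8 T cells (0.324). The AT values rest on 17 Tim3-KD cells, and the 3 Klre1 UMIs of AT Tim3-KD came from 1 cell. Ltb had 3.58 in AT and 0.150 in Micro, and other non-CD8 T and CD8 T cells of the same libraries moved likewise. Hspa1b, a heat shock gene, had 8.0 in AT, where 1 cell gave 52.2% of the Tim3-KD UMIs, and 0.273 in Micro. Without that cell the AT ratio was 3.98 (2.09 to 7.90). Without the Ctrl cell richest in Hspa1b the Micro ratio was 0.413 (0.131 to 1.13). Isg15, an interferon-stimulated gene, had 0.324 in AT, 2.01 in Micro and 2.32 in Macro. Without the Tim3-KD cell richest in Isg15 the ratio was 1.48 (0.869 to 2.55) in Micro and 1.93 (1.15 to 3.40) in Macro. Trdc had 4.25 in AT, from 1 Ctrl and 2 Tim3-KD cells, and 0.121 in Micro, from 8 and 2 cells. Ccl3 had 0.0746 in AT and 12.3 in Macro, where 1 cell gave 96.7% of the UMIs. Without that cell the Macro ratio was 0.420 (0.133 to 1.27). Without the Ctrl cell richest in Ccl3 the AT ratio was 0.161 (0.00374 to 1.11). With the gate on UMIs the AT log2 ratio turned round, to 0.87. Ccl4 had 0.141 in AT, 0.375 in Micro and 2.44 in Macro. The Micro ratio was 8.25 (2.51 to 42.8) without the 1 Ctrl cell that held 95.5% of its UMIs. The Micro log2 ratio also turned round with the gate on UMIs (0.38) and without Trdc cells (2.63). Without the Tim3-KD cell richest in Ccl4 the Macro ratio was 1.49 (1.06 to 2.13).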

How the results depend on the processing

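The class tests were paired by library. With no such block, a fit added after the data were seen, 182 genes were higher and 62 lower than other non-CD8 T cells, and the other counts of calls moved by less than 1.5 times. The fit of Tim3-KD over the sites, also added then, called 0 genes with the site as a block, 0 without that block, 0 without cells with RNA of other types, and 3 without the Micro libraries. All 6 libraries entered the class tests, and 5172 of the 5556 log2 differences recomputed kept their direction and their side of the threshold, 380 kept the direction only and 4 reversed. Leaving out 1 library at a time gave 153 to 188 genes higher and 57 to 118 lower than other non-CD8 T cells, 91 to 125 and 105 to 148 against NK or ILC1 cells, 101 to 139 and 83 to 135 against CD8 T cells, and 96 to 130 and 109 to 150 against activated or regulatory T cells. The lowest counts of lower genes came without Macro Tim3-KD (57, and 67 without Micro Ctrl) and without Micro Ctrl (83 against CD8 T cells). A filter added after the data were seen took cells with RNA of other types out of the Cxcr6 T cells alone and left them in the other classes. With it 203 genes were lower than other non-CD8 T cells and 203 lower than CD8 T cells, over 5 libraries, since AT Tim3-KD kept 9 Cxcr6 T cells. Without cells with RNA of other types in any class, the genes lower than other non-CD8 T cells numbered 66 and those higher 158, those lower than activated or regulatory T cells 94, and Stmn1, Sh2d1a, Klra3, Cd28, Tnfrsf18 and Cish were among the genes that no longer passed. Log2 differences that reversed there were 0.0055 for Igkc against other non-CD8 T cells, and 0.21 for Igkc and -0.59 for Ccl9 against CD8 T cells.

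The share of all cells was 7.85% in AT Ctrl, 2.27% in Micro Ctrl, 3.28% in Micro Tim3-KD, 1.52% in Macro Ctrl and 3.90% in Macro Tim3-KD among cells without Csf3r. With a gate on UMIs it was 6.46% in AT Tim3-KD, 1.66% in Micro Ctrl, 1.63% in Macro Ctrl and 2.31% in Macro Tim3-KD, with a residency score above 2 it was 0.764% in Micro Ctrl and 0.856% in Micro Tim3-KD, and without cells with RNA of other types 1.66% in AT Tim3-KD. The share of T cells was 7.2% in AT Tim3-KD without those cells, and 8.46% and 10.7% in Micro Ctrl and Tim3-KD at a score above 2. The Tim3-KD minus Ctrl share in AT, 0.197 points, was -0.946 without cells with RNA of other types, 2.91 with the gate on UMIs, -0.117 without Trdc cells and -4.22 without Csf3r cells. In Micro, 0.0704 points became -0.226 with the gate on UMIs, -0.104 without cells under 3000 UMIs and 1.01 without Csf3r cells, and in Macro 1.02 became 2.39 without Csf3r cells. The Macro difference stayed above 0 under every alternative run, and was 0.680 with the gate on UMIs.

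Genes past 2-fold numbered 306 in AT, and 523 with the gate on UMIs and 88 with at least 50 UMIs. In Micro they numbered 99, and 158 at a score above 1, 201 with the gate on UMIs and 20 with at least 50 UMIs. In Macro 162 became 56 with at least 50 UMIs, and for Macro Ctrl against Micro Ctrl 50 became 112 at a score above 1 and 165 with the gate on UMIs. The cause was not tested, other than the fewer genes tested at 50 UMIs and the fewer or more cells of another gate.

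As log2 ratios, these reversed. With the gate on UMIs, AT Ccl3 was 0.87, Micro Ccl4 0.38, Micro Ccl3 0.073, Micro Anxa1 -2.13 and Macro Cd79a -0.78. Without Trdc cells Micro Ccl4 was 2.63 and Micro Ccl3 0.37. At a score above 1, Micro Chil3 was -1.32, Micro Gzma -0.22, Micro Anxa1 -1.57 and Hmgn2 of Micro against AT 1.09. At a score above 2, Macro H2-Eb1 was 0.14, H2-Aa 2.25 and H2-Ab1 1.34, and Ccl9 of Macro against Micro -0.15. Without cells with RNA of other types, Micro Anxa1 was -0.015, and Macro Clec7a 0.31, Lyz2 0.44, H2-Aa 1.05, Ebf1 -1.28 and Cd79a -2.86. In Macro against Micro of Ctrl, H2-Aa was -2.36, Ccl9 -1.14, Clec7a -1.14 and H2-Ab1 -0.29 without them, and Ccl9 against CD8 T cells was -0.35. Depth limits what a gene with few UMIs can show.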
